A study of Homo sapiens with 12 samples.

Results

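The comparison described here set macrophages that had received an IL-8 neutralizing antibody beside macrophages from the same coculture without it. The members were the libraries labelled anti_IL_8 and OE, 3 of each, so 6 of the 12 libraries of the series. Every library came from THP-1, a human monocytic leukaemia line that the study turned into macrophage-like cells (tumor-associated macrophages, TAMs) with phorbol 12-myristate 13-acetate, and all the TAMs shared a Transwell chamber with AsPC-1 pancreatic cancer cells. In the OE-MMP28 group the cancer cells carried a lentivirus that overexpressed MMP28, a secreted metalloproteinase. The anti-IL-8 group had the same cells plus the IL-8 antibody. The anti-VEGFA group had the same cells plus a VEGFA antibody, and the control group had cancer cells with an empty vector. No group is labelled as having received a control antibody, so a response to IL-8 blockade and a response to any added antibody cannot be told apart. THP-1 and AsPC-1 are each 1 line, and no label says that the replicates came from separate cultures, so the p-values measure the spread between these libraries, which may be technical.

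IL-8, the product of CXCL8, is a chemokine that binds the G protein-coupled receptors CXCR1 and CXCR2 and draws neutrophils and other myeloid cells toward its source. Receptor binding releases Gi proteins, and downstream kinases reach transcription factors such as AP-1 and NF-kB, which also switch CXCL8 on. Immediate early genes (FOS, JUN, EGR, NR4A and KLF family members) respond rapidly and transiently to such signals. The libraries hold no time course, so an early response and a lasting difference in level cannot be told apart. The antibody binds the secreted protein, whereas the libraries measured RNA, so CXCL8 transcripts are a readout of the TAMs and not a check of neutralization.

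The 6 libraries held 15869658 to 17626105 counts, and mitochondrially encoded transcripts took 8.41% to 12.3% of them. At this depth 3 counts, used as the lower limit of a level, equal 0.17 to 0.189 CPM (counts scaled to a common library size). Macrophage genes were present: CD14 had 15960 to 28377 counts and CSF1R, the receptor of the macrophage growth factor, 2093 to 3249. CD68 had 2 to 4 counts, in a table where its interval overlaps those of other genes. Of the 8 epithelial markers of the cancer cells, EPCAM was at 0 in all 6 libraries, and the 8 together summed to 2.38 to 2.95 CPM in OE-MMP28 and 3.34 to 4.51 CPM in anti-IL-8 libraries. The 8 macrophage markers summed to 1990 to 2900 CPM and 2610 to 3130 CPM, respectively. MMP28 itself was at 0 counts in all 12 libraries of these TAMs. OE-MMP28 replicate 2 stood apart from the other libraries, as given below, and results are given with and without it. In bulk RNA, fewer cells of a state and less RNA per cell cannot be told apart.

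IL-8 blockade went with widespread but small differences. Of 16046 genes tested, 4700 passed an unadjusted p of 0.05, which is 29.3% of the genes (the study's methods name a P threshold of that size and no adjustment). Among them 2147 (13.4%) were higher with the antibody and 2553 (15.9%) lower. The median absolute log2 fold change among the 4700 genes was 0.465, and 197 of them differed by 2-fold or more. After Benjamini-Hochberg adjustment in edgeR's quasi-likelihood test, 2707 genes (16.9%) had an adjusted p under 0.10, 1166 (7.27%) higher and 1541 (9.6%) lower, and 0 had one under 0.05. The 3 libraries of each group did not overlap in CPM for 2197 genes (13.7%) that were higher and 2463 (15.3%) that were lower. The smallest adjusted p, 0.0627, was shared by 604 genes. At the stricter threshold, DESeq2 called 2122 genes on the same counts and limma voom called 0. Leaving out OE-MMP28 replicate 2 reduced the genes past the unadjusted p to 2358, and leaving out OE-MMP28 replicate 3 raised them to 6290, with 4125 at an adjusted p under 0.05. Leaving out anti-IL-8 replicate 3 left 3097 genes past the unadjusted p.

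The direction of a gene's difference followed the base composition of its transcripts. When the genes were cut into 10 equal groups by the GC content of their annotated transcripts, 44.5% of the most AT-rich group (23.1% to 39.7% GC) were lower with anti-IL-8 and 0.125% were higher. In the most GC-rich group (61.6% to 84.3% GC), 52.4% were higher and 0.187% were lower. In the sixth group (49.1% to 51.9% GC), 3.87% were higher and 3.62% lower. Across 16040 genes within this comparison, Pearson's r between log2 fold change and GC content was 0.659 and Spearman's rho 0.712, as a description, since genes are not independent replicates. The pattern was weaker but present without OE-MMP28 replicate 2, where 24.4% of the most AT-rich group were lower and 27.9% of the most GC-rich group were higher. The share of lower genes also went with gene length, from 3.96% in the shortest of 5 equal length groups to 27.6% in the longest. The share of higher genes did not follow length in the same way, at 11.2%, 16.7%, 17%, 14% and 7.95% from the shortest group to the longest.

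**Figure D1:**
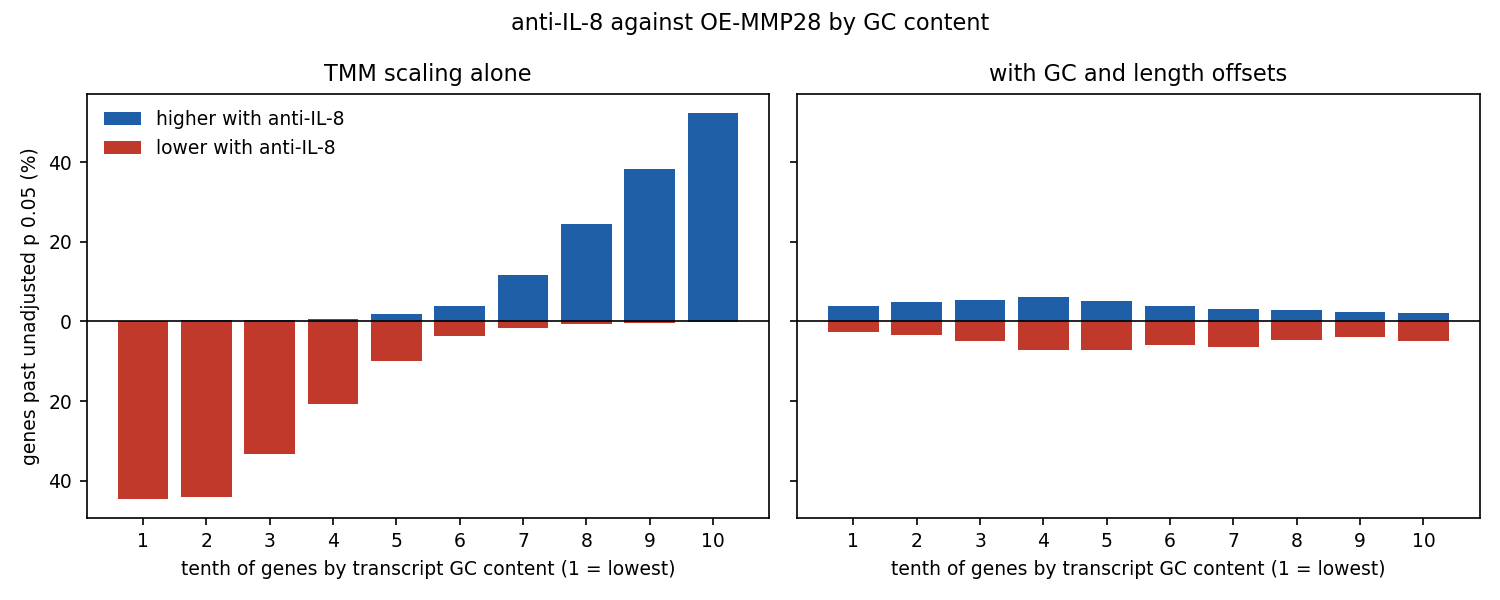
Share of genes past the unadjusted p of 0.05 in each of 10 equal groups of genes ordered by transcript GC content, higher with anti-IL-8 above the line and lower below it. With TMM scaling alone the share lower runs from 44.5% in the most AT-rich group to 0.187% in the most GC-rich, and with offsets for GC content and length it lies between 2.68% and 7.17% in every group.

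The tilt was a property of whole libraries. The slope of a library's log2 levels on GC content, per 10 GC percentage points and relative to the mean of all 12 libraries, was 0.246, 0.115 and 0.274 in the anti-IL-8 libraries. It was -0.112, -0.406 and 0.037 in the OE-MMP28 libraries, so the groups did not overlap and OE-MMP28 replicate 2 had the steepest slope of the series. Control libraries had slopes of -0.178 to -0.0875 and anti-VEGFA libraries of 0.0443 to 0.123. OE-MMP28 replicate 2 also lay farthest from the other 5 libraries on the first principal component of the 6, which held 47.6% of their variance. Whether the tilt arose in the cells or in library preparation was not tested. Because the tilt and the antibody fall on the same libraries, most results below are also given after offsets. These remove, library by library, the trend of counts with GC content and gene length. They would also remove a biological response that follows base composition. This correction was chosen after the data had been seen.

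**Figure D2:**
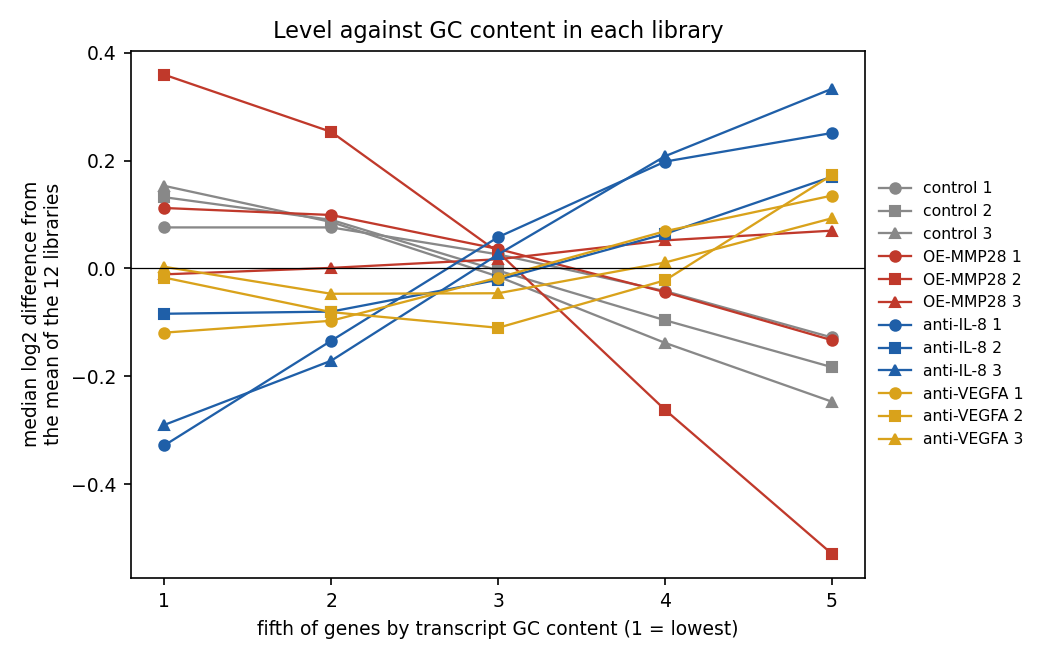
Median log2 difference of each library from the mean of the 12 libraries in 5 equal groups of abundant protein-coding genes ordered by GC content. The 3 anti-IL-8 libraries lie at -0.328 to -0.084 in the most AT-rich group and at 0.17 to 0.333 in the most GC-rich group, and OE-MMP28 replicate 2 runs from 0.359 to -0.529.

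To show what this composition looks like, 120 bases from the middle of the longest coding exon of CXCL8 and PTGS2, which were lower with the antibody, and of KLF16 and TEDC1, which were higher, are printed below from GENCODE 29 (GRCh38), all lower case. The CXCL8 stretch lies in exon 2 (chr4:73741550-73741669, plus strand, 43.3% GC) and the PTGS2 stretch in exon 10 (chr1:186674499-186674618, minus strand, 41.7% GC). The KLF16 stretch lies in exon 1 (chr19:1863209-1863328, minus strand, 87.5% GC) and the TEDC1 stretch in exon 9 (chr14:105498720-105498839, plus strand, 71.7% GC).
CXCL8: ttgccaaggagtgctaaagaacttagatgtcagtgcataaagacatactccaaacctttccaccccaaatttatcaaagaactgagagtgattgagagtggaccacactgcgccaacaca
PTGS2: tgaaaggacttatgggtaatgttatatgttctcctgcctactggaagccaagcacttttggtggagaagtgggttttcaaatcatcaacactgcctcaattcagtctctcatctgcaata
KLF16: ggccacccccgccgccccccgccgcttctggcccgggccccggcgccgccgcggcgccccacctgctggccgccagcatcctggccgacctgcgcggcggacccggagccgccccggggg
TEDC1: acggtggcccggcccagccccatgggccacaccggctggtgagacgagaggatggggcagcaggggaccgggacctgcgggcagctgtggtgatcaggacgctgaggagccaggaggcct

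With the offsets, 1458 genes (9.09%) passed the unadjusted p of 0.05, of which 634 (3.95%) were higher and 824 (5.14%) lower. Of the 4700 genes past that threshold before, 771 (16.4%) passed it again in the same direction. At an adjusted p under 0.10 there were 4 genes (0.0249%) and under 0.05 there was 1 (0.00623%), RPL7AP6, a processed pseudogene of a ribosomal protein gene whose reads may belong to its parent. RPL7AP6 was lower with anti-IL-8, at -0.99 ± 0.202 without and -1.21 ± 0.15 with offsets on the log2 scale. It was also lower with anti-VEGFA than in OE-MMP28, at -1.34 in both fits. The other 3 of the 4 genes were NR4A2 and IRS2, both lower, and FBXO22, higher. RPL7AP6, IRS2 and FBXO22 were named after their values were seen. In all 14 fits made of the comparison, with and without offsets and with each of the 6 libraries left out in turn, 33 genes were higher and 125 lower at the unadjusted p of 0.05.

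NR4A2, an orphan nuclear receptor of the immediate early class (chr2:156324432-156342348 on GRCh38), stood at 29.6, 30.3 and 20.6 CPM in OE-MMP28 and at 12.4, 14.6 and 7.46 CPM in anti-IL-8 libraries. The 2 groups did not overlap, and the log2 fold change was -1.22 ± 0.201 (SE), with an adjusted p of 0.0627. With the offsets it was -1.35 ± 0.211 and the adjusted p 0.0595. Its transcripts are 52.6% GC, and of the genes with 51.9% to 55% GC, 11.7% were higher and 1.68% lower without offsets. Its control libraries held 29.4 to 36 CPM, so the anti-IL-8 libraries were the lowest of the series.

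The immediate early factors were counted in both fits. Without offsets 7 of the 35 members were higher and 7 lower at the unadjusted p of 0.05, against 13.4% and 15.9% of all genes. With offsets 1 member, IER5, was higher and 15 (42.9%) were lower, against 3.95% and 5.14% of all genes, and the median log2 fold change of the 35 was -0.213 beside -0.00992 over all genes. Leaving out any 1 of the 6 libraries left 10 to 17 members lower with offsets, and 11 without OE-MMP28 replicate 2. KLF6, a zinc finger factor of early responses, was at 231, 255 and 143 CPM in OE-MMP28 and 124, 132 and 114 CPM in anti-IL-8 libraries. The log2 fold change was -0.77 ± 0.182 without and -0.72 ± 0.157 with offsets. KLF4, a related factor active in macrophage polarization, was at 53.3, 51 and 36.8 CPM and at 33.5, 32.1 and 31.1 CPM. Its log2 fold change was -0.55 ± 0.154 without and -0.80 ± 0.17 with offsets, a difference against the general tilt, since its transcripts are 55.1% GC. For both genes the groups did not overlap, and both passed the unadjusted p in all 14 fits. Both were also lower with the VEGFA antibody than in OE-MMP28, as were FOS, FOSB, MYC and DUSP1, with values given below.

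FOS, a subunit of the AP-1 dimer, differed more with the offsets. It was at 673, 606 and 594 CPM in OE-MMP28 and at 615, 438 and 360 CPM in anti-IL-8 libraries, with overlap. Its log2 fold change was -0.41 ± 0.163 (adjusted p 0.114) without offsets and -0.77 ± 0.172 (adjusted p 0.275) with them. FOSB, its close relative, was lower by -0.71 ± 0.252 and -1.03 ± 0.275 on the log2 scale. MYC, a growth regulator, and DUSP1, the phosphatase that switches off MAP kinases, did not pass without offsets (-0.24 ± 0.156 and -0.28 ± 0.147) and were lower at the unadjusted p with them (-0.57 ± 0.158 and -0.58 ± 0.161). In the other direction IER2, MAFF, IER3 and DUSP2 were higher by 0.47 to 0.61 on the log2 scale without offsets, with GC contents of 58.4% to 63.3%, and none of these 4 passed with them. FOS, MYC, DUSP1 and IER5 were named after their values were seen.

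Among the IL-8 family ligands, CXCL8 was the most abundant, with 89402 to 192187 counts in the 6 libraries. Its level was 10199, 11238 and 9330 CPM in OE-MMP28 and 5753, 7302 and 6344 CPM in anti-IL-8 libraries, so the groups did not overlap and the mean fell from 10256 ± 955 to 6467 ± 782 CPM (SD, n = 3 each). The log2 fold change was -0.67 ± 0.178 with an adjusted p of 0.0627, and -0.32 ± 0.152 with offsets, where the adjusted p was 0.549 and 1 of the 6 fits with a library left out passed the unadjusted p. CXCL5, a neutrophil chemokine that also binds CXCR2, was at 93.1, 78.1 and 78.5 CPM against 54, 53.3 and 42.6 CPM. That gave a log2 fold change of -0.74 ± 0.177 without and -0.40 ± 0.183 with offsets. With offsets the CXCL5 groups overlapped and the adjusted p was 0.531. There, 2 of the 6 fits with a library left out passed the unadjusted p. CXCL2, another CXCR2 ligand, named after its values were seen, was at 125, 122 and 121 CPM against 104, 98.1 and 86.4 CPM. It did not pass without offsets (-0.35 ± 0.174) and was lower at the unadjusted p with them (-0.63 ± 0.186). CXCL1 and CXCL3, the remaining growth-related chemokines, did not pass in either fit, with log2 fold changes of -0.15 ± 0.186 and -0.10 ± 0.173 without offsets.

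The receptors of IL-8 were scarcely measured in these TAMs. CXCR1 had 0 counts in all 6 libraries and CXCR2 1 to 7 counts, so neither was tested and no difference was detectable at this depth. Downstream, GRK2, the kinase that desensitizes such receptors, was higher at 0.47 ± 0.122 on the log2 scale, and GNB2, a G protein beta subunit, at 0.51 ± 0.155. RGS14 and RGS19, which shut off Gi proteins, were higher at 0.54 ± 0.167 and 0.39 ± 0.15, whereas RGS1, of the same family, was lower at -0.45 ± 0.172. PIK3CG, the PI3-kinase that G protein beta-gamma subunits recruit, was lower at -0.67 ± 0.253. With offsets these 6 genes lay between -0.45 and 0.08 and none passed the unadjusted p. Over the 28 members tested of the 33 listed ligands, receptors and signalling proteins, 7 were higher and 7 lower without offsets (25% each, beside 13.4% and 15.9% of all genes), and 0 higher and 4 lower (14.3%) with them, beside 3.95% and 5.14% of all genes.

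PTGS2, the inducible cyclooxygenase (COX-2) that makes the precursor of prostaglandin E2, was at 217, 213 and 159 CPM in OE-MMP28 and at 84.6, 116 and 101 CPM in anti-IL-8 libraries, with no overlap. Its log2 fold change was -0.96 ± 0.188 (adjusted p 0.0627) without and -0.59 ± 0.157 (adjusted p 0.285) with offsets, and it passed the unadjusted p in all 14 fits. PTGER4, the EP4 receptor of prostaglandin E2, which raises cyclic AMP (cAMP), was at 310, 336 and 246 CPM against 195, 208 and 225 CPM. Its log2 fold change was -0.51 ± 0.152 without and -0.76 ± 0.164 with offsets, again in all 14 fits, and the groups did not overlap. PLA2G4A, the phospholipase that frees the substrate of PTGS2, was at 9.57, 8.71 and 7.8 CPM against 4.44, 5.4 and 5.45 CPM, with log2 fold changes of -0.77 ± 0.164 and -0.43 ± 0.165. With offsets it passed the unadjusted p in 3 of the 6 fits with a library left out. PTGER4 and PLA2G4A were named after their values were seen, and a list of 21 prostaglandin enzymes and receptors was then written out. Of its 15 members tested, 4 were higher (PTGS1, PTGES2, PTGER1 and TBXA2R) and 4 lower without offsets. With offsets 0 were higher and 4 lower (PTGS2, PTGER4, PLA2G4A and PTGES, the prostaglandin E synthase). Over all genes the shares higher and lower were 13.4% and 15.9% without offsets, and 3.95% and 5.14% with them.

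A list of 24 genes known to respond to cAMP, written at the same time and sharing 9 members with the immediate early list, had 23 members tested. Of these, 2 were higher and 12 lower without offsets, and 0 higher and 9 lower with them, at median log2 fold changes of -0.406 and -0.316. Over all genes 13.4% were higher and 15.9% lower without offsets, 3.95% and 5.14% with them, at medians of -0.0155 and -0.00992. IRS2, an adaptor of insulin receptor signalling, was at 187, 207 and 159 CPM in OE-MMP28 and at 131, 133 and 136 CPM in anti-IL-8 libraries. The groups did not overlap, and the log2 fold change was -0.47 ± 0.119 without and -0.79 ± 0.132 with offsets, at adjusted p-values of 0.0627 and 0.0639. THBS1, the matricellular protein thrombospondin, was at 1.92, 2.92 and 2 CPM against 1.03, 1.19 and 0.908 CPM. The log2 fold change was -1.12 ± 0.31 without and -1 ± 0.289 with offsets. Both lists were drawn up after these values were seen, so their counts describe the libraries and support nothing further.

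The sequences before the start sites of 4 of these genes are shown with matches to short DNA motifs marked. They are the 250 bases upstream of the start site, in the direction of the gene, from RefSeq (GRCh38.p14). Capitals mark TGACG or its reverse complement CGTCA, the core of the element bound by the cAMP-responsive factor CREB. In CXCL8 they also mark the AP-1 element TGACTCA and the NF-kB element GGAATTTCC, each searched on both strands. The regions are chr4:73740319-73740568 (plus strand), chr1:186680424-186680673 (minus strand), chr14:75278578-75278827 (plus strand) and chr9:107489770-107490019 (minus strand).
CXCL8: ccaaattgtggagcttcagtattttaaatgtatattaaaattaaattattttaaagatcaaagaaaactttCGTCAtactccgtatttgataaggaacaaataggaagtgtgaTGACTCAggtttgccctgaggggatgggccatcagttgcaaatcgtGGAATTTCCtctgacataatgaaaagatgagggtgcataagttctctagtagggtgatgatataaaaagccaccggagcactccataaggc
PTGS2: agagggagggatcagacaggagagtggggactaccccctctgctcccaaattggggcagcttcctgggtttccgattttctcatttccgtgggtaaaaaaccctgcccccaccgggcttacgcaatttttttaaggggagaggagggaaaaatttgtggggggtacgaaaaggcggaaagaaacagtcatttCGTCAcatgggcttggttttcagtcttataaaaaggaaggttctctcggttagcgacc
FOS: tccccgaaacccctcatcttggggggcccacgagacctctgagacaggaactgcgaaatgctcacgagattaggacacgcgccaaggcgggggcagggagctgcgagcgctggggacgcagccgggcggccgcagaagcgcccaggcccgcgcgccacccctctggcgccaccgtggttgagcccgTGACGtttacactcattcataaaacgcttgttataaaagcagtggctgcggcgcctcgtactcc
KLF4: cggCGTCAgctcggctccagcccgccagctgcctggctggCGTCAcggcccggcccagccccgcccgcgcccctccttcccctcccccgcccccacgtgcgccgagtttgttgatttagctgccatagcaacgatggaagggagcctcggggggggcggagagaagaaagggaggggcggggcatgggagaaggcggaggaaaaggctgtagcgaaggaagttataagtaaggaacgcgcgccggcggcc
In these windows the CREB core begins 58 bases before the start site in PTGS2, 64 in FOS, 179 in CXCL8, and 247 and 210 in KLF4. CXCL8 holds the AP-1 element at 137 and the NF-kB element at 91 bases. Of the upstream windows of 10839 tested genes with a RefSeq entry, 29% hold the CREB core, 2.86% the AP-1 element and 0.434% the NF-kB element. The full CREB element, TGACGTCA, is in 2.71% of them and is absent from the windows shown. Of the immediate early members with an entry, 8 of 10 that were lower with offsets and 8 of the 16 others hold the CREB core. The rest of the 15 lower members had no entry and are not counted. Members were split by the values described here, so these counts describe the windows and support nothing further. A match describes letters in a window and not binding.

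**Figure D3:**
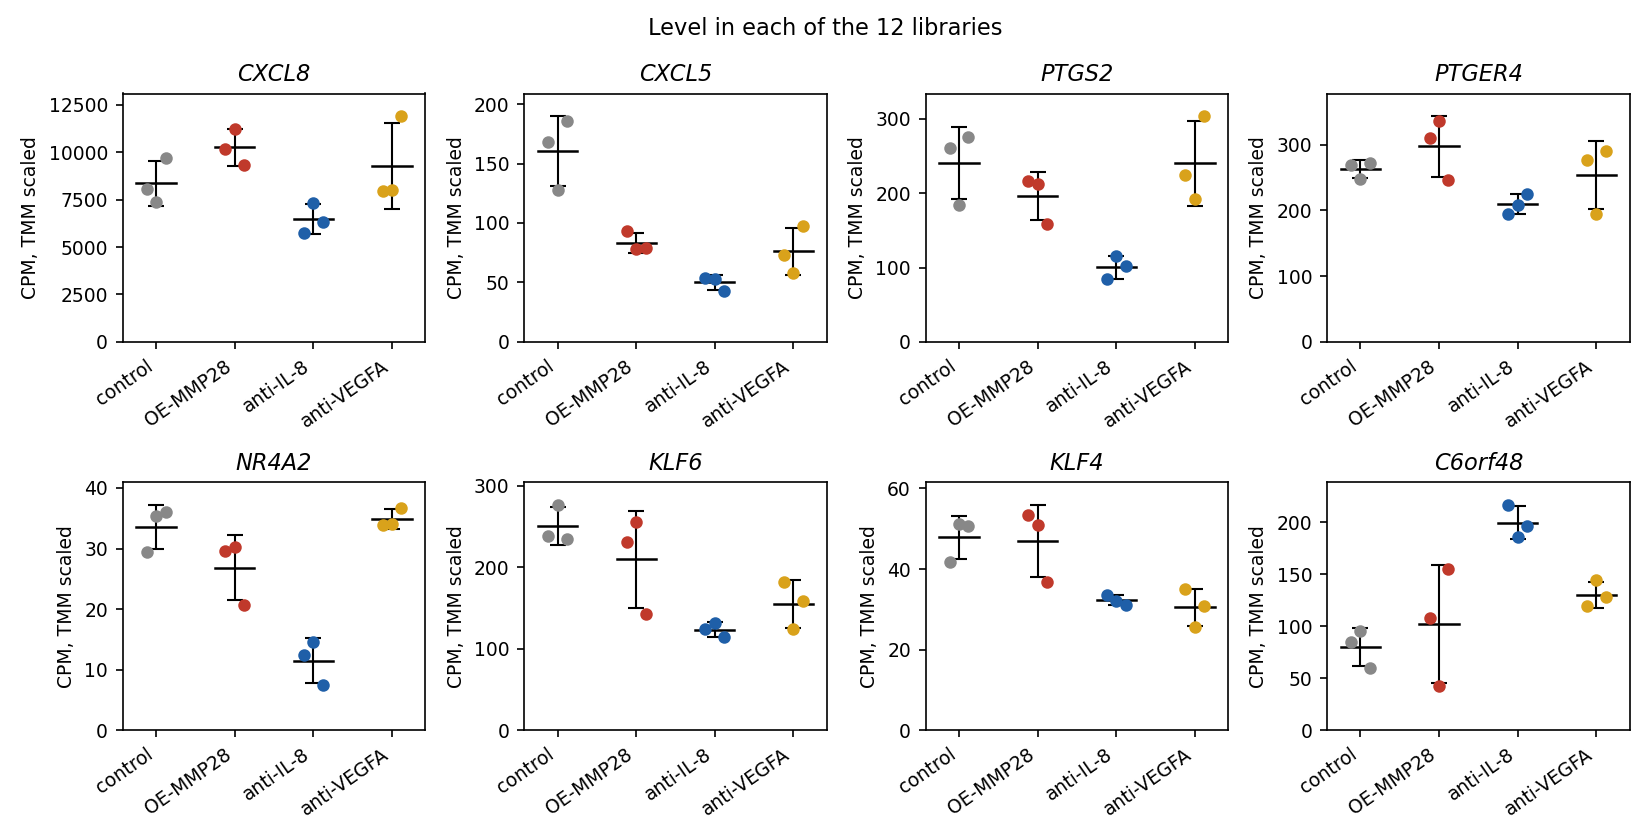
TMM-scaled CPM of 8 genes in each of the 12 libraries, with the mean and standard deviation of the 3 libraries of a group as the bar. For CXCL8, CXCL5, PTGS2, PTGER4, NR4A2, KLF6 and KLF4 the 3 anti-IL-8 libraries lie below the 3 OE-MMP28 libraries, and for C6orf48 they lie above them.

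NF-kB is the pathway through which inflammatory receptors drive many cytokine genes. Of 38 tested members and targets, 7 (18.4%) were higher and 10 (26.3%) lower without offsets, against 13.4% and 15.9% of all genes. With offsets 0 were higher and 9 (23.7%) lower, against 3.95% and 5.14% of all genes. Without OE-MMP28 replicate 2 these counts with offsets were 0 and 7. TNFAIP6, a secreted hyaluronan-binding protein, was at 104, 118 and 89.8 CPM in OE-MMP28 and at 59.8, 66 and 58.3 CPM in anti-IL-8 libraries, without overlap. The log2 fold change was -0.76 ± 0.157 without and -0.45 ± 0.161 with offsets. BIRC2 and BIRC3, ubiquitin ligases of the pathway, were lower at -0.63 ± 0.144 and -0.66 ± 0.182. With offsets BIRC2 still passed (-0.26 ± 0.0921), while BIRC3 did not (-0.24 ± 0.123). Of the 7 that were higher without offsets, RELB, TRAF2, IKBKG and MMP9 had GC contents of 61.6% to 65%, and with offsets they lay between -0.04 and 0.19 without passing.

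The MAP kinase cascade, which relays signals from the cell surface and includes the JNK kinases, split by base composition. Without offsets 10 of 41 members (24.4%) were higher, at a median GC content of 61.8%, and 13 (31.7%) were lower, at 39.8%. The shares over all genes were 13.4% and 15.9%. MAPK8, which encodes JNK1, was lower at -0.43 ± 0.144 without offsets and at 0.01 ± 0.0988 with them. MAPK14 (p38 alpha) did not pass in either fit, at -0.14 ± 0.136 and 0.06 ± 0.103. MAPK3 (ERK1) was higher at 0.37 ± 0.137 without offsets and at -0.03 ± 0.0943 with them. With offsets 1 member, MAP3K11, was higher and 1 lower (2.44% each), beside 3.95% and 5.14% of all genes. These are transcript levels and hold no measure of kinase activity.

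The polarization markers used by the study gave little to read. CD86, the M1 marker, was at 1.48, 1.99 and 0.687 CPM in OE-MMP28 and at 0.515, 0.474 and 0.973 CPM in anti-IL-8 libraries, from 8 to 34 counts a library. It was lower at -1.09 ± 0.474 at the unadjusted p, which it lost with offsets (-0.81 ± 0.479) and without OE-MMP28 replicate 2 (-0.74). CD163, the M2 marker, was at 4.01, 3.57 and 4.56 CPM against 4.76, 2.14 and 2.98 CPM, a log2 difference of -0.30 ± 0.307 that did not pass. The other markers of the study, NOS2 and MRC1 (CD206), had at most 7 and 4 counts and were not tested. Of 18 tested M1 genes 1 was higher (5.56%) and 4 lower (22.2%), and of 16 M2 genes 2 were higher and 2 lower (12.5% each), beside 13.4% and 15.9% of all genes. With offsets these counts were 0 and 2 (11.1%) for M1, and 0 and 1 (6.25%) for M2, beside 3.95% and 5.14% of all genes. The M2 genes past the threshold without offsets were TGFB1 and CD209, higher, and CLEC7A and MSR1, lower. ITGAM, ANXA2 and CCL2 did not pass in either fit, and VEGFA did not pass without offsets (-0.13 ± 0.147) but was lower at the unadjusted p with them (-0.34 ± 0.123). FLT1, a VEGF receptor, was lower at -0.37 ± 0.119 without offsets and at -0.09 ± 0.087 with them.

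The remaining lists are read against the shares over all genes, which were 13.4% higher and 15.9% lower without offsets, and 3.95% and 5.14% with them. The amino acid shortage response had 18 of 38 members higher and 3 lower, the largest share higher among the lists described, at a median GC content of 59.2% for those 18. With offsets 3 were higher and 1 lower, and without OE-MMP28 replicate 2, with no offsets, 4 were higher. Of 74 amino acid enzymes tested 10 were higher (13.5%) and 11 lower (14.9%), and with offsets 5 (6.76%) and 3 (4.05%), shares near those of all genes. Translation factors were 4 higher and 19 lower (36.5%) of 52, and with offsets 4 and 2. Macrophage identity genes were 7 higher and 2 lower of 27, and with offsets 0 and 2. Interferon-stimulated genes were 5 higher and 9 lower of 34, and with offsets 0 and 3. Respiratory chain subunits had 7 higher (9.86%) and 1 lower of 71 without offsets, and 12 higher (16.9%) and 1 lower with them. Leaving out single libraries moved those 12 to between 4 and 32.

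Among genes with an adjusted p under 0.10 without offsets that met the other naming conditions, 10 in each direction were taken by size. On the higher side these were PDXP, TEDC1, SAC3D1, MEIS3, GPER1, APC2, C6orf48, COL18A1, ADM5 and KLF16, with log2 fold changes of 0.94 to 1.42. With offsets the 10 ran from 0.28 (KLF16) to 0.96 (C6orf48). C6orf48, a host gene of small nucleolar RNAs, stood out by its GC content of 49% and its level, which was 109, 42.6 and 155 CPM in OE-MMP28 and 217, 186 and 196 CPM in anti-IL-8 libraries. Its log2 fold change was 0.97 ± 0.288 without and 0.96 ± 0.255 with offsets, and 0.60 without OE-MMP28 replicate 2. TEDC1, a centriole protein gene, was at 2.47, 1.58 and 3 CPM against 5.6, 5.75 and 6.75 CPM, with log2 fold changes of 1.36 ± 0.24 and 0.82 ± 0.187. CBX7, a Polycomb subunit among the 5 higher genes of smallest p, was at 15, 12.1 and 16.5 CPM against 23.9, 22.7 and 22.8 CPM, at 0.67 ± 0.135 and 0.34 ± 0.102. Both TEDC1 and CBX7, as well as PDXP and C6orf48, passed in all 14 fits. COL18A1, ADM5, GPER1 and LRFN4 did not pass the unadjusted p with offsets.

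On the lower side the 10 genes were NR4A2, ROS1, HERC5, CRYBG3, KIF24, TGFBR3, ITGA2, PTGS2, APAF1 and ENOX1, with log2 fold changes of -1.22 to -0.94. With offsets the 10 ran from -1.35 (NR4A2) to -0.57 (APAF1). ROS1 (a receptor tyrosine kinase), KIF24 (a kinesin), TGFBR3 (a TGF-beta co-receptor), APAF1 (the core of the apoptosome) and ENOX1 passed in all 14 fits, and so did IMPA1 and CHMP2B, which were named for their small p. HERC5, an interferon-induced ligase, was at 9.02, 5.61 and 3.62 CPM against 2.45, 3.56 and 2.79 CPM. The log2 fold change was -1.06 ± 0.288 without and -0.71 ± 0.295 with offsets, where the groups overlapped. With offsets HERC5 passed the unadjusted p in 3 of the 6 fits with a library left out. Its control libraries held 70.3 to 104 CPM, so it was already low in OE-MMP28. CRYBG3 did not pass with offsets. Named after their values were seen, CTGF, a matrix-associated growth factor gene, was lower at -0.81 ± 0.207 and -0.94 ± 0.204, and PRDM1, a transcriptional repressor, at -0.59 ± 0.14 and -0.46 ± 0.109. FBXO22, a ubiquitin ligase subunit, was at 17.2, 20.7 and 18 CPM against 22.5, 25.8 and 21.2 CPM, at 0.31 ± 0.134 without and 0.70 ± 0.116 with offsets.

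The VEGFA antibody offered another antibody in the same coculture, and the 2 antibody groups were compared directly. Of 16046 genes, 32 (0.199%) differed between them at an adjusted p under 0.05 in edgeR. NR4A2 was at 33.9, 34 and 36.7 CPM with anti-VEGFA, above all 3 anti-IL-8 libraries, a log2 difference of -1.60 (anti-IL-8 minus anti-VEGFA) with an adjusted p of 0.00229. PTGS2 was at 225, 192 and 304 CPM with anti-VEGFA, a log2 difference of -1.26 with an adjusted p of 0.00651. ITGA2, a collagen-binding integrin, was at 1.03, 2.14 and 1.75 CPM with anti-IL-8 and at 6.3, 3.87 and 4.75 CPM with anti-VEGFA, a log2 difference of -1.59 with an adjusted p of 0.0206. With offsets the adjusted p-values of these 3 genes were 0.00173, 0.00376 and 0.0128, and 249 genes (1.55%) passed. For the remaining named genes the adjusted p of the direct test was 0.0793 or more without offsets. With offsets 3 more passed 0.05, namely FBXO22, higher with anti-IL-8 by 0.73 on the log2 scale (adjusted p 0.00656), CBX7, higher by 0.51 (0.0224), and PRDM1, lower at -0.47 (0.0412). CXCL8 differed by -0.52 between the antibodies (adjusted p 0.197), so a difference was not shown. FOS was at 283, 325 and 299 CPM with anti-VEGFA, a log2 difference of 0.64 with an adjusted p of 0.1. KLF4 was at 35, 25.7 and 30.9 CPM with anti-VEGFA, a log2 difference of 0.08 with an adjusted p of 0.832. With offsets these differences were -0.36 for CXCL8 (adjusted p 0.243), 0.48 for FOS (0.166) and -0.07 for KLF4 (0.882). The comparisons of each antibody with OE-MMP28 share the OE-MMP28 libraries. Against those, anti-VEGFA gave log2 fold changes of 0.38 for NR4A2, 0.29 for PTGS2, -0.14 for CXCL8, -0.44 for KLF6 and -0.62 for KLF4. With offsets these were 0.37, 0.49, 0.04, -0.35 and -0.72. Anti-VEGFA also gave -1.05 for FOS, -1.30 for FOSB, -0.50 for MYC and -0.64 for DUSP1 (-1.26, -1.52, -0.66 and -0.72 with offsets). IER2, MAFF, IER3, DUSP2 and IER5 were higher with it, at 0.39 to 0.76 without offsets. They lay at 0.14 to 0.71 with offsets, where all but MAFF passed the unadjusted p. With offsets FOS, FOSB, MYC, DUSP1, KLF6 and KLF4 were thus lower with either antibody at the unadjusted p.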

How the data were processed

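RNA of THP-1 derived TAMs was sequenced in 4 groups of 3 libraries. Reads were mapped with HISAT2 2.0.5 and counted per gene with featureCounts 1.5.0-p3, per the submitters' processing notes, and the deposited table held counts for 58735 genes on GRCh38. The authors also deposited FPKM values (counts scaled by gene length and depth), which were averaged per group but are not printed, and columns of their own fold changes and p-values, which were not used. Whether counting used strand is not given in the sources used here, so overlapping genes are uncertain.

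Counts were fitted with edgeR 4.0.16 (TMM scaling, filterByExpr, quasi-likelihood test, two-sided) over all 12 libraries, 16046 genes passing the filter. Totals ran from 15852346 to 18701195 counts. In an alternative chosen after the data were examined, loess offsets (span 0.3) removed each library's trend with transcript GC content and gene length. Both fits were tested on simulated data. DESeq2 1.42.0, limma 3.58.1, other scalings, filters and sample sets were also tried. Genes were named as the 10 largest and the 5 smallest p in each direction. These came from non-overlapping protein-coding genes with an adjusted p under 0.10 without offsets and a mean count of at least 50 in the higher group. The genes of proteins the study names were added. So were up to 4 members per list and direction past the unadjusted p, with a mean count of at least 10. Other genes are marked as chosen after their values were seen. The members and lists were chosen with earlier results of these data known. One gene that the rule names is not reported here.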

Additional observations from a re-analysis of the deposited data

Results flagged for a closer look

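In a direct test between the antibody groups, 3 of the named genes differed at an adjusted p under 0.05 (edgeR's quasi-likelihood test, Benjamini-Hochberg), all lower with anti-IL-8, in the fit without offsets. NR4A2 differed by -1.6 on the log2 scale (anti-IL-8 minus anti-VEGFA, adjusted p 0.00229). ITGA2 differed by -1.592 (adjusted p 0.0206), at 16 to 74 counts in the anti-IL-8 and OE-MMP28 libraries. PTGS2 differed by -1.256 (adjusted p 0.00651). In each of these genes the 3 anti-IL-8 libraries were below the 3 anti-VEGFA libraries. With offsets for GC content and length these 3 passed again (adjusted p 0.00173, 0.0128 and 0.00376, in the order given), and so did FBXO22 (0.73, adjusted p 0.00656) and CBX7 (0.51, 0.0224), both higher with anti-IL-8, and PRDM1 (-0.47, 0.0412), lower.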

How the results depend on the processing

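The count of 4700 genes past the unadjusted p of 0.05 was 2358 to 6290 over the fits that left out 1 library. The 2147 higher genes became 965 to 3291 and the 2553 lower genes 1335 to 2999. The 2707 genes at an adjusted p under 0.10 became 0 to 5665, with 0 without OE-MMP28 replicate 1 or 2 or anti-IL-8 replicate 1 or 3, and 0 when only the 6 libraries were fitted. With offsets for GC content and length the counts were 1458 in all, 634 higher, 824 lower, 4 at an adjusted p under 0.10 and 1 under 0.05, and with offsets for GC content alone 1358, 607, 751 and 3. With the offsets and 1 library left out (OE-MMP28 replicates 1 to 3, then anti-IL-8 replicates 1 to 3), the totals were 1111, 791, 2395, 896, 1570 and 1123, with 500, 322, 1159, 370, 681 and 494 higher and 611, 469, 1236, 526, 889 and 629 lower. At an adjusted p under 0.10 they were 1, 1, 335, 1, 3 and 0, and under 0.05 they were 1, 1, 83, 1, 1 and 0. At an adjusted p under 0.05, where the reported count is 0 in edgeR, there were 1438 without a filter on low counts, 2122 with DESeq2, 795 with the replicate block, 1166 without anti-VEGFA replicate 2 and 0 to 4125 over all libraries left out. The 32 genes of the direct test between antibodies became 277 without a filter, 57 with at least 10 counts in every library, 60 among protein-coding genes, 245 with DESeq2, 17 with 6 libraries, 249 and 134 with the 2 kinds of offsets, 3 to 112 with 1 library left out, and 155, 232, 324, 20, 132 and 20 with that and offsets, in the order given above. The cause of these shifts was not tested.

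The replicate numbers did not pair the libraries: deviations of same-numbered OE-MMP28 and anti-IL-8 libraries correlated at -0.065, 0.21 and -0.042. With the replicate block, 4955 genes passed the unadjusted p.

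Among named genes, offsets for GC content and length turned the log2 fold change of MAPK8 to 0.00766, MAPK14 to 0.0646, MAPK3 to -0.0334, CCL2 to 0.0374, RGS19 to -0.169, MAPK11 to -0.0218, MAP2K2 to -0.00163, RELB to -0.0364, IRF5 to -0.052, TGFB1 to -0.0778 and MSR1 to 0.083. Offsets for GC content alone gave 0.0392 for MAPK14, -0.0213 for MAPK3, 0.0946 for CCL2, -0.106 for RGS19, -0.00828 for MAP2K2, -0.00898 for RELB, -0.0501 for IRF5, -0.0576 for TGFB1 and 0.0496 for MSR1. ANXA2, near 0 throughout, was at -0.0263 with library totals, -0.0104 without a filter, -0.00554 with at least 10 counts and -0.00499 among protein-coding genes. With 1 library left out ANXA2 ran from -0.0843 to 0.178 and CCL2 from -0.135 to 0.0654. Of the 87 named genes, 42 kept their direction and side of the unadjusted p with offsets for GC content and length, 29 lost it, 5 gained it and 11 turned direction. Genes under 3 counts could not be compared at this depth.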
